A study of Homo sapiens with 8 samples.

Results

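The IL-6, JAK and STAT3 pathway was followed at 9 genes: IL6R, IL6ST, JAK1, JAK2, STAT3, SOCS1, SOCS3, PIM1 and BCL3. Every peak of open chromatin whose nearest annotated transcript belongs to one of them was taken, which gave 32 of the 62528 peaks in the deposited table. IL6R had 6 peaks, JAK1 and BCL3 had 5 each, IL6ST and STAT3 had 4 each, SOCS3 and PIM1 had 3 each, and JAK2 and SOCS1 had 1 each. Of these peaks, 9 were promoter peaks (within 1000 bp of the annotated transcript start), 18 lay elsewhere in the gene and 5 were intergenic. That is 28.1%, 56.2% and 15.6% of the members, against 25.5%, 43.0% and 31.5% of all peaks. Within a gene the peaks are numbered by position along the chromosome, and all coordinates are GRCh38 as deposited.

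The assay was ATAC-seq, where a transposase cuts and tags open DNA, and the cells were JJN3 and KMS11, established lines from human myeloma. Each line was exposed for 48 h to solvent (DMSO), to 200 nM pomalidomide, to 40 nM GNE-781 or to both drugs together, with 1 library per line and treatment. Pomalidomide makes cereblon mark IKZF1 and IKZF3 for destruction, whereas GNE-781 occupies the bromodomain of EP300 and of its paralog CREBBP. All groups share medium with 5% serum, and the labels name no IL-6 added to it and no genetic change; the BATF and eGFP cells named in the design text are not analysed here. Because each line and treatment has a single library, the 2 lines serve as the replicates of a treatment. The p-values therefore compare each change with a spread between these 8 libraries around a common response of the lines. That spread is estimated mostly from all tested peaks together rather than from each peak alone.

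Interleukin-6 binds its receptor IL6R, membrane-bound or shed, and the pair engages the signalling subunit gp130, encoded by IL6ST. The kinases JAK1 and JAK2, bound to gp130, then phosphorylate STAT3, which dimerises and enters the nucleus. SOCS3 and SOCS1 are induced as feedback inhibitors, and PIM1 and BCL3 are among the genes that STAT3 can induce. In the bone marrow, IL-6 from stromal cells is a growth and survival factor for myeloma plasma cells.

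Of the 9 plasma cell marker genes examined, 8 had a promoter peak, and no peak was nearest to TNFRSF17. Their summed promoter accessibility was 302 to 345 CPM (counts scaled to a common library size with edgeR's factors) in JJN3 and 232 to 266 in KMS11. Among 7 T and NK cell genes only CD8A had a promoter peak, among 7 myeloid genes only CSF3R, and among 6 erythroid genes only HBB. CD14, LYZ, SPI1 and MPO had no peak at all. Of the 6 stromal genes, COL1A1, COL1A2 and CXCL12 had a promoter peak. By the strongest promoter peak, mean CPM over the libraries ran from 8.42 (SLAMF7) to 51.9 (POU2AF1) among the plasma cell genes. It was 34.4 for CD8A, 14.6 for CSF3R, 5.05 for HBB, 25.3 for COL1A1, 5.4 for COL1A2 and 6.07 for CXCL12. Library totals ran from 1366628 counts in JJN3 DMSO, the shallowest, to 5435673 in KMS11 with both drugs. The median count per peak was 12 to 49, and 47.5% to 50.9% of counts fell in promoter peaks.

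RefSeq promoter windows of GRCh38.p14 (250 bases before and 50 after a transcript start) were found for all 9 genes, 15 windows in all. Of these, 8 lay wholly inside a member peak, and those of IL6R and of the upstream start of JAK1 lay inside peaks that the deposited table assigns to other transcripts. A further 3 overlapped a member peak in part, and 2 of JAK2 lay in no peak. The windows were rich in G and C, with a median of 69% against 58.7% over all 35116 windows, and held a median of 28 CG pairs against 14. The STAT site TTCNNNGAA, read on both strands, was in none of the 15 windows and in 7.66% of all windows. The AP-1 motif TGANTCA was in the IL6R window, at bases 38 to 44 after the start, and in 7.71% of all windows. The IRF motif, a pair of GAAA runs 2 bases apart, was in the SOCS1 window, at bases -113 to -104, and in 3.57% of all windows. A match is a run of letters and not evidence of binding. Shown first is the stretch before the IL6ST start (chr5:55994964-55995213, minus strand), which lies in the member peak at a RefSeq start that changed with both drugs. Its CG pairs, 31 in number, are in capitals. The stretch before the SOCS1 start (chr16:11256205-11256454, minus strand) follows because it holds the only IRF match, in capitals.
IL6ST: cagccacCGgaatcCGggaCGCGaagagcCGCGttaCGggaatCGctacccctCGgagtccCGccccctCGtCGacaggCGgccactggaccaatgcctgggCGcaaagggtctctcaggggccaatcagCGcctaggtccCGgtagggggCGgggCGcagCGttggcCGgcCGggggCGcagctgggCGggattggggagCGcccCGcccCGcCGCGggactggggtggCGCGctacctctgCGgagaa
SOCS1: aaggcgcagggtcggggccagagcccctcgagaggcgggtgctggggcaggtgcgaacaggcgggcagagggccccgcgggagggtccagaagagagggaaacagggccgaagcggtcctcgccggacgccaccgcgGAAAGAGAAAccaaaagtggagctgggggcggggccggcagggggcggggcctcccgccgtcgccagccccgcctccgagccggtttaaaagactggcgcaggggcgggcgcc

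With both drugs, 7 of the 32 peaks changed against DMSO (21.9%), while 4.79% of all 62234 tested peaks did. All 32 members passed the filter on low counts. A change means an adjusted p under 0.05 in edgeR's quasi-likelihood test, adjusted over all tested peaks. Of the members, 5 rose (15.6%, against 2.11% of all peaks) and 2 fell (6.25%, against 2.67%). The changed peaks belonged to IL6R (2 higher, 1 lower), IL6ST (2 higher), JAK1 (1 lower) and STAT3 (1 higher). By place, 2 of 9 promoter members and 5 of 18 in-gene members changed, against 1.69% and 5.98% of all such peaks, and 0 of 5 intergenic members did, against 5.67%. The median change was 0.25 (log2) over the 32 peaks and 0 over all peaks. In bulk nuclei, fewer cells with an open site and less opening per cell cannot be told apart.

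These 7 calls need the JJN3 DMSO library, the shallowest of the 8. Without it none of the 32 was called in edgeR, although 13 had an unadjusted p under 0.05, and 3.68% of all peaks were still called. The direction of all 7 was kept there, with log2 changes from -1.35 to 2.16. Leaving out the JJN3 library with both drugs kept only IL6ST peak 4. Without the KMS11 DMSO library, or without the KMS11 library with both drugs, IL6R peak 5 and JAK1 peak 3 were kept. DESeq2 kept 1 of the 7 calls, IL6R peak 5, lost 4 and gave no adjusted p to the other 2. DESeq2 called 0.633% of all peaks.

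**Figure D1:**
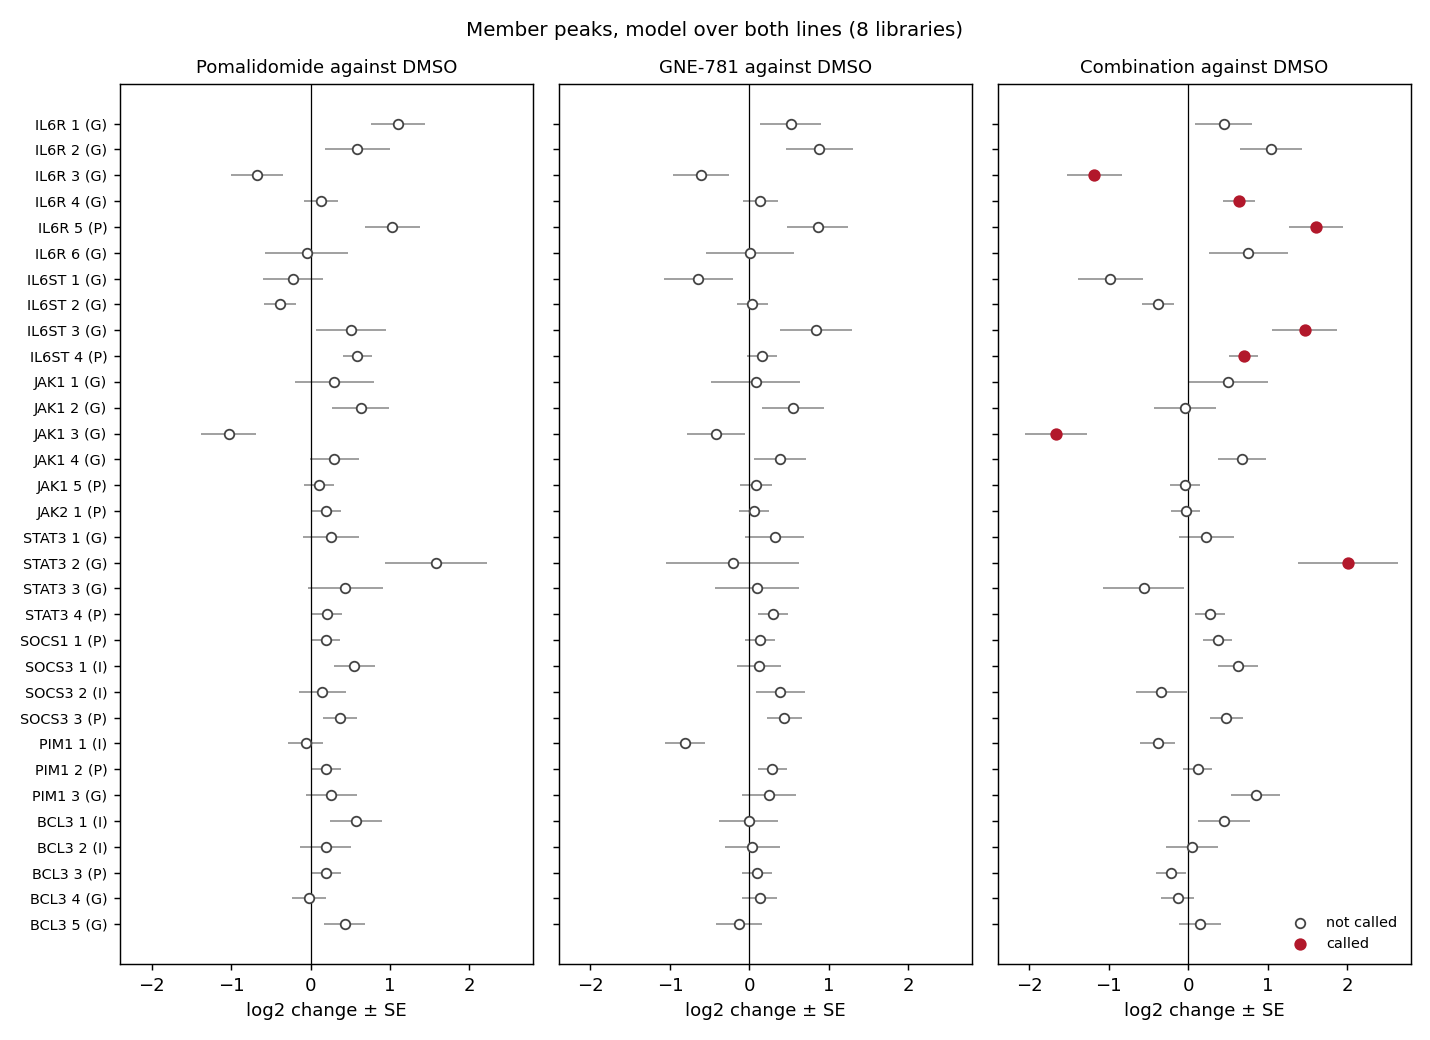
Log2 change of each of the 32 peaks against DMSO under pomalidomide, GNE-781 and both drugs, from the edgeR model over 8 libraries. Bars are ± 1 SE, filled points are called at an adjusted p under 0.05, and P, G and I mark promoter, in-gene and intergenic peaks. Filled points appear only under both drugs, 5 to the right of 0 and 2 to the left.

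IL6R, the ligand-binding receptor chain, changed at 3 of its 6 peaks. IL6R peak 5 (chr1:154453551-154454151) is a promoter peak only of a downstream Ensembl transcript and lies 48208 bp from the RefSeq start of the gene. Its CPM in JJN3 was 6.01 with DMSO, 18.0 with pomalidomide, 12.2 with GNE-781 and 31.5 with both, and in KMS11 it was 6.21, 10.3, 11.3 and 13.4 in the same order. All 6 treated libraries lay above both DMSO libraries. With both drugs it rose by 1.61 ± 0.34 (log2, SE), or 3.06-fold, with an edgeR adjusted p of 0.00196. The single agents gave 1.03 ± 0.35 for pomalidomide and 0.86 ± 0.38 for GNE-781, neither past the threshold (adjusted p = 0.157 and 0.679). The combined change of IL6R peak 5 had an adjusted p of 0.0561 without JJN3 DMSO and 0.0979 without the JJN3 library with both drugs.

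IL6R peak 4 (chr1:154444858-154445559), inside the gene 39515 bp from the RefSeq start, was the most accessible of the 6. JJN3 gave 55.6, 60.0, 55.1 and 80.0 CPM under DMSO, pomalidomide, GNE-781 and both, and KMS11 gave 20.2, 22.3, 24.9 and 34. Each line was highest with both drugs, and the lines did not overlap. The rise was 0.64 ± 0.20 (log2, adjusted p = 0.0483), close to the threshold, and any of 6 libraries left out ended the call; the pomalidomide libraries were the exceptions. IL6R peak 3 (chr1:154439582-154439919), 34239 bp from the RefSeq start, moved in the opposite direction. Its CPM was 24.1, 18.7, 16.0 and 8.73 in JJN3 and 9.06, 4.07, 5.82 and 4.63 in KMS11. Both lines were highest under DMSO. With both drugs its log2 change was -1.18 ± 0.35 (adjusted p = 0.0342), a call that ended without any one of the 4 libraries compared, with an adjusted p of up to 0.418.

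The other IL6R peaks did not pass the threshold. IL6R peak 1 (chr1:154407344-154407760), singled out after its values were seen, lies 2001 bp from the RefSeq start. It had 10.5, 31.3, 8.98 and 19.4 CPM in JJN3 and 7.25, 11.1, 13.9 and 7.84 in KMS11. JJN3 was highest under pomalidomide and KMS11 under GNE-781. Its change under pomalidomide alone was 1.1 ± 0.34 (edgeR adjusted p = 0.0939). A model with a line by drug term pools the pomalidomide change over libraries with and without GNE-781. There the difference between the lines was 1.49 ± 0.43 (edgeR adjusted p = 0.179). IL6R peaks 2 and 6 gave 1.04 ± 0.39 and 0.76 ± 0.50 under both drugs.

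The RefSeq start of IL6R itself lies in a peak (chr1:154404970-154406642) that the deposited table assigns to RP11-350G8.5, a transcript on the opposite strand, so it is not one of the 32. That peak had 77.4, 116, 71.2 and 107 CPM in JJN3 and 74.3, 86.0, 73.1 and 70.9 in KMS11. JJN3 was higher in its pomalidomide-containing libraries, and KMS11 was highest under pomalidomide alone. With both drugs the change was 0.17 ± 0.18 (log2, adjusted p = 0.697). The changed IL6R peaks thus all lay inside the gene, away from its main start.

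IL6ST, the gp130 subunit shared by the IL-6 family of receptors, changed at its promoter. IL6ST peak 4 (chr5:55994561-55995587), which covers the RefSeq start, had 56.4, 98.0, 70.5 and 91.6 CPM in JJN3 under DMSO, pomalidomide, GNE-781 and both, and 69.9, 94.3, 72.1 and 115 in KMS11. The 4 libraries with pomalidomide, alone or with GNE-781, were all above the 4 without it. Both drugs together raised the peak by 0.70 ± 0.18 (log2), or 1.63-fold, with an edgeR adjusted p of 0.0107. Pomalidomide alone gave 0.59 ± 0.18 (adjusted p = 0.0792), the lowest adjusted p of any member under a single agent, and GNE-781 alone gave 0.16 ± 0.19. In JJN3 the ratio of both drugs to DMSO was 1.63 (95% exact counting interval 1.24 to 2.15) and in KMS11 1.64 (1.42 to 1.90). These intervals cover counting error only. The call ended without JJN3 DMSO (adjusted p = 0.0975), without KMS11 DMSO (0.092) and without the KMS11 library with both drugs (0.33).

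IL6ST peak 3 (chr5:55982905-55983309) lies in the gene 11654 bp from the start. It had 1.5, 4.67, 7.05 and 11.2 CPM in JJN3 and 5.69, 7.07, 8.08 and 12.3 in KMS11. Both lines were lowest under DMSO and highest with both drugs, and the DMSO and combination libraries did not overlap. The rise was 1.47 ± 0.41 (log2, adjusted p = 0.0206). It rests on 2 counts in JJN3 DMSO against 23 with both drugs, a ratio of 7.42 with a counting interval of 1.83 to 64.9, and on 22 against 69 counts in KMS11, a ratio of 2.16 (1.32 to 3.66). Leaving out any of those 4 libraries ended the call, with an adjusted p of up to 0.155. IL6ST peaks 1 and 2, further into the gene, gave -0.98 ± 0.41 and -0.38 ± 0.20 with both drugs and were not called.

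**Figure D2:**
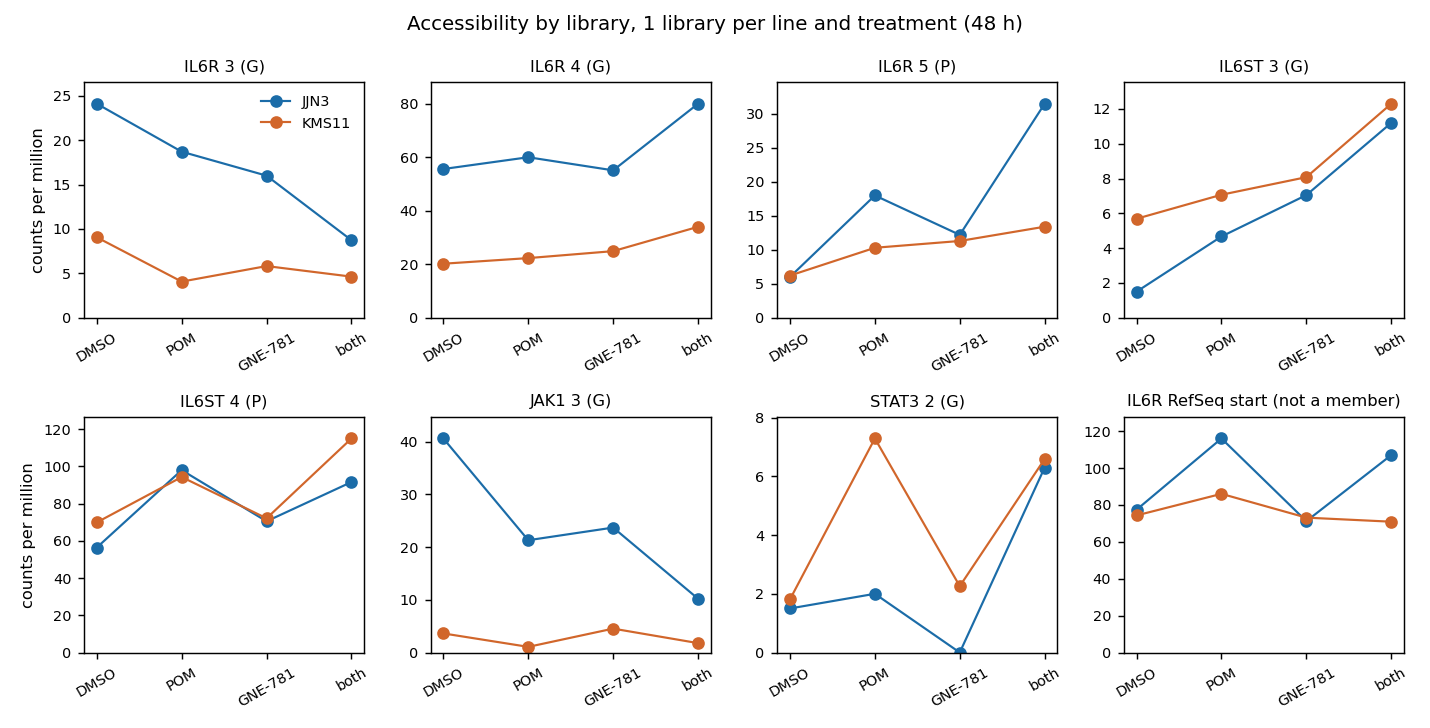
CPM by library for the 7 peaks that changed with both drugs and for the peak at the RefSeq start of IL6R, which is not a member. Each point is 1 library, lines only join the libraries of JJN3 (blue) or KMS11 (orange), and each vertical axis starts at 0. IL6ST peak 4 is at 91.6 CPM or more in the 4 libraries with pomalidomide and at 72.1 or less in the others.

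JAK1, a kinase bound to gp130, had no called change at its promoter, and 1 of its 4 in-gene peaks fell. JAK1 peak 3 (chr1:64895519-64895906), 70643 bp from the nearest RefSeq start, had 40.6, 21.3, 23.7 and 10.2 CPM in JJN3 under DMSO, pomalidomide, GNE-781 and both. KMS11 had 3.62, 1.07, 4.53 and 1.78, from 14, 5, 14 and 10 counts. JJN3 was far above KMS11 under every treatment, and within each line the libraries with pomalidomide were below those without it. The log2 change with both drugs was -1.66 ± 0.39 (adjusted p = 0.00545), or 3.17-fold lower. The ratio to DMSO was 0.251 in JJN3 (counting interval 0.144 to 0.422) and 0.491 in KMS11 (0.195 to 1.19). The adjusted p was 0.25 without JJN3 DMSO and 0.401 without the JJN3 library with both drugs.

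JAK1 peak 5 (chr1:64965792-64966942), its promoter peak, had 60.1, 76.6, 57.7 and 56.2 CPM in JJN3 and 55.4, 50.6, 63.1 and 55.6 in KMS11. The change with both drugs was -0.04 ± 0.19 (log2), with a 95% interval of -0.42 to 0.34. A second RefSeq start of JAK1, upstream, lies in a peak assigned to RP4-535B20.1 (chr1:65066507-65068168), where the change was 0.04 ± 0.19. JAK2, the other kinase of the pathway followed here, had a promoter peak only (chr9:4984490-4985687). JAK2 peak 1 had 56.4, 79.3, 57.7 and 58.2 CPM in JJN3 and 83.1, 80.6, 88.6 and 79.4 in KMS11. JJN3 was highest under pomalidomide alone and KMS11 varied little. Both drugs gave -0.03 ± 0.18, with an interval of -0.39 to 0.34.

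STAT3, the transcription factor that carries the signal, changed at a weak peak inside the gene. STAT3 peak 2 (chr17:42329105-42329426), 59016 bp from the start, had 2, 6, 0 and 13 counts in JJN3 under DMSO, pomalidomide, GNE-781 and both, and 7, 34, 7 and 37 in KMS11. KMS11 was high in both libraries with pomalidomide, and JJN3 only with both drugs. The change with both drugs was 2.01 ± 0.63 (log2, edgeR adjusted p = 0.0465). The ratio to DMSO in KMS11 was 3.64 (counting interval 1.6 to 9.67), and in JJN3 it was 4.19 with an interval of 0.949 to 38.3, which includes 1. The 0 counts under GNE-781 in JJN3 allow a ratio of up to 4.54 to DMSO. Leaving out any 1 of 5 libraries ended the call, with an adjusted p of up to 0.685; the JJN3 pomalidomide and both GNE-781 libraries were the exceptions.

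STAT3 peak 4 (chr17:42387937-42389091), the promoter peak, had 45.8, 50.3, 52.6 and 49.0 CPM in JJN3 and 60.8, 71.8, 77.6 and 79.4 in KMS11. Every treated library was above the DMSO library of its line, by little in JJN3. The change with both drugs was 0.28 ± 0.19 (adjusted p = 0.484). STAT3 peaks 1 and 3 gave 0.23 ± 0.35 and -0.56 ± 0.51.

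The feedback inhibitors were not called in the combination. SOCS1 binds and inhibits JAK kinases, and its single peak (chr16:11255610-11256763) covers the promoter sequence printed above. It had 80.4, 89.6, 82.1 and 109 CPM in JJN3 and 40.4, 47.2, 47.2 and 49.7 in KMS11. Both lines were lowest under DMSO and highest with both drugs. The change was 0.37 ± 0.18 (log2, unadjusted p = 0.0488, adjusted p = 0.284).

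SOCS3, the inhibitor that docks on gp130, differed between the lines in its values. SOCS3 peak 3 (chr17:78359771-78361013), the promoter peak, had 42.1, 49.0, 35.3 and 39.8 CPM in JJN3 and 37.3, 49.5, 66.9 and 66.1 in KMS11. The libraries with GNE-781 were below DMSO in JJN3 and well above it in KMS11. Under GNE-781 alone the ratio to DMSO was 0.838 in JJN3 (counting interval 0.567 to 1.24) and 1.80 in KMS11 (1.44 to 2.24). The line by drug term pools the GNE-781 change over libraries with and without pomalidomide. Its line difference was -0.89 ± 0.27 (log2, JJN3 minus KMS11), with an unadjusted p of 0.00112 and an adjusted p of 0.361 in edgeR. It therefore did not pass over all peaks. SOCS3 peak 1 (chr17:78352775-78353507) is intergenic, 6570 bp from the annotated transcript start. It had 15.8, 21.7, 16.7 and 19.4 CPM in JJN3 and 18.9, 28.3, 20.7 and 32.8 in KMS11. In each line both libraries with pomalidomide were above both without it, and the change with both drugs was 0.63 ± 0.25 (adjusted p = 0.153). SOCS3 peak 2 gave -0.34 ± 0.32.

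PIM1 and BCL3, the STAT3 target genes followed here, had no called peak in any drug comparison. PIM1 encodes a serine/threonine kinase that promotes survival. Its promoter peak 2 (chr6:37169506-37170425) had 79.7, 98.6, 90.4 and 82.9 CPM in JJN3 and 54.1, 57.5, 70.2 and 60.5 in KMS11, and changed by 0.12 ± 0.18 with both drugs. PIM1 peak 3 (chr6:37172091-37172443), in the gene, had 11.3, 11.7, 12.2 and 19.4 CPM in JJN3 and 9.58, 12.6, 12.0 and 17.6 in KMS11. The 2 combination libraries were the highest, and the change was 0.85 ± 0.31 (adjusted p = 0.101). PIM1 peak 1 (chr6:37155240-37156035), intergenic and 14168 bp from the start, had 50.4, 43.0, 37.8 and 43.2 CPM in JJN3 and 30.3, 32.6, 12.6 and 21.4 in KMS11. Each line was lowest under GNE-781 alone. The change there was -0.81 ± 0.25, the lowest adjusted p among the members for GNE-781 (0.365).

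BCL3 encodes a nuclear IκB-family protein that acts with NF-κB subunits. Its promoter peak 3 (chr19:44747256-44748964) had 75.2, 70.3, 54.5 and 45.1 CPM in JJN3 and 81.0, 106, 112 and 88.1 in KMS11. In JJN3 all 3 treated libraries were below DMSO, and in KMS11 all 3 were above it. The change with both drugs was -0.22 ± 0.19 (edgeR adjusted p = 0.617). Line differences of the pooled drug changes did not pass (edgeR adjusted p = 0.92 for pomalidomide and 0.571 for GNE-781). BCL3 peak 1 (chr19:44738806-44739267), intergenic, had the lowest p of its peaks with both drugs, at 0.45 ± 0.33 (adjusted p = 0.539). The other 3 BCL3 peaks lay between -0.13 and 0.15.

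Neither drug alone changed a member in the model with 1 effect per treatment. Under pomalidomide 0 of 32 peaks were called in edgeR (1.25% of all peaks were), 7 had an unadjusted p under 0.05, and DESeq2 called 0 with 4 unadjusted. The median change was 0.23 (log2), against 0.02 over all peaks, and 20 peaks were higher and 4 lower in both lines. Under GNE-781 0 were called (0.0209% of all peaks were), 3 had an unadjusted p under 0.05, and DESeq2 called 0 with 1. The median was 0.13 against 0, and 15 of the 32 peaks went opposite ways in the 2 lines. Directions in the 2 lines were counted for the members only, with no share over all peaks to set beside them. Each line's changes also share its 1 DMSO library.

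When the 4 libraries with pomalidomide were set against the 4 without it, in a model where the drugs add on the log2 scale, 5 members were called, against 6.21% of all peaks. IL6ST peak 4 was higher with pomalidomide by 0.57 ± 0.12 (adjusted p = 0.000837). IL6R peak 5 was higher by 0.87 ± 0.23 (0.0105), STAT3 peak 2 by 1.89 ± 0.45 (0.00397) and SOCS3 peak 1 by 0.53 ± 0.17 (0.045). JAK1 peak 3 was lower, at -1.11 ± 0.26 (0.0033). Of these, 4 were also called with both drugs against DMSO, a comparison that shares its libraries. In the same edgeR model no member was called for GNE-781 (0.961% of all peaks were), and 9 had an unadjusted p under 0.05.

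Comparing the combination with each single agent gave no called member in edgeR. Against pomalidomide 0 of 32 passed (0.0112% of all peaks did), with 7 at an unadjusted p under 0.05 and a lowest adjusted p of 0.478. DESeq2 called 0, with 1 unadjusted. Against GNE-781 0 passed (1.09% of all peaks did), with 8 unadjusted. DESeq2 called 0 there, with 3 unadjusted. The lowest adjusted p was 0.0762, for STAT3 peak 2 (2.22 ± 0.65). The test of whether the effect of both drugs departs from additivity on the log2 scale called 0 members and 0% of all peaks, with 3 members at an unadjusted p under 0.05 in edgeR and 0 in DESeq2. For IL6R peak 5 the departure was -0.28 (unadjusted p = 0.564) and for IL6ST peak 4 it was -0.05 (0.851).

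Counts summed over all peaks of a gene were tested in the same way over 24872 genes, of which 3.49% changed with both drugs. Of the 9 genes only IL6R did. Its sum covers its 6 member peaks and leaves out the peak at its RefSeq start, assigned to RP11-350G8.5. That peak held 103 counts in JJN3 DMSO and 287 in KMS11 DMSO, against 144 and 199 in the sum. With both drugs it changed by 0.17 ± 0.18 (log2, edgeR adjusted p = 0.697 over all peaks). The IL6R sum was 109, 140, 105 and 167 CPM in JJN3 and 51.5, 59.9, 71.2 and 74.2 in KMS11. Each line was highest with both drugs, and the rise was 0.57 ± 0.16 (log2, edgeR adjusted p = 0.0289). The call ended without any one of the DMSO or combination libraries (adjusted p = 0.0875 to 0.318), in DESeq2 (0.187), and when only the distal peaks were summed (0.42 ± 0.18, adjusted p = 0.156). IL6ST gave 0.34 ± 0.14 (adjusted p = 0.187), and its promoter peak alone gave 0.69 ± 0.15 on this scale (0.00163). SOCS3 gave 0.37 ± 0.17, SOCS1 0.36 ± 0.17 and STAT3 0.31 ± 0.16, with adjusted p of 0.248 to 0.334. Without JJN3 DMSO the summed SOCS3 change was 0.63 ± 0.19 and was called (adjusted p = 0.0481), whereas it was -0.01 ± 0.22 (0.994) without KMS11 DMSO and 0.11 ± 0.24 (0.913) without the KMS11 library with both drugs. PIM1 (0.06), JAK1 (-0.06), JAK2 (-0.03) and BCL3 (-0.09) were near 0. Under pomalidomide alone and under GNE-781 alone none of the 9 sums passed (0.595% and 0% of all genes did); SOCS3 had the only unadjusted p under 0.05, for pomalidomide (0.0489).

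**Figure D3:**
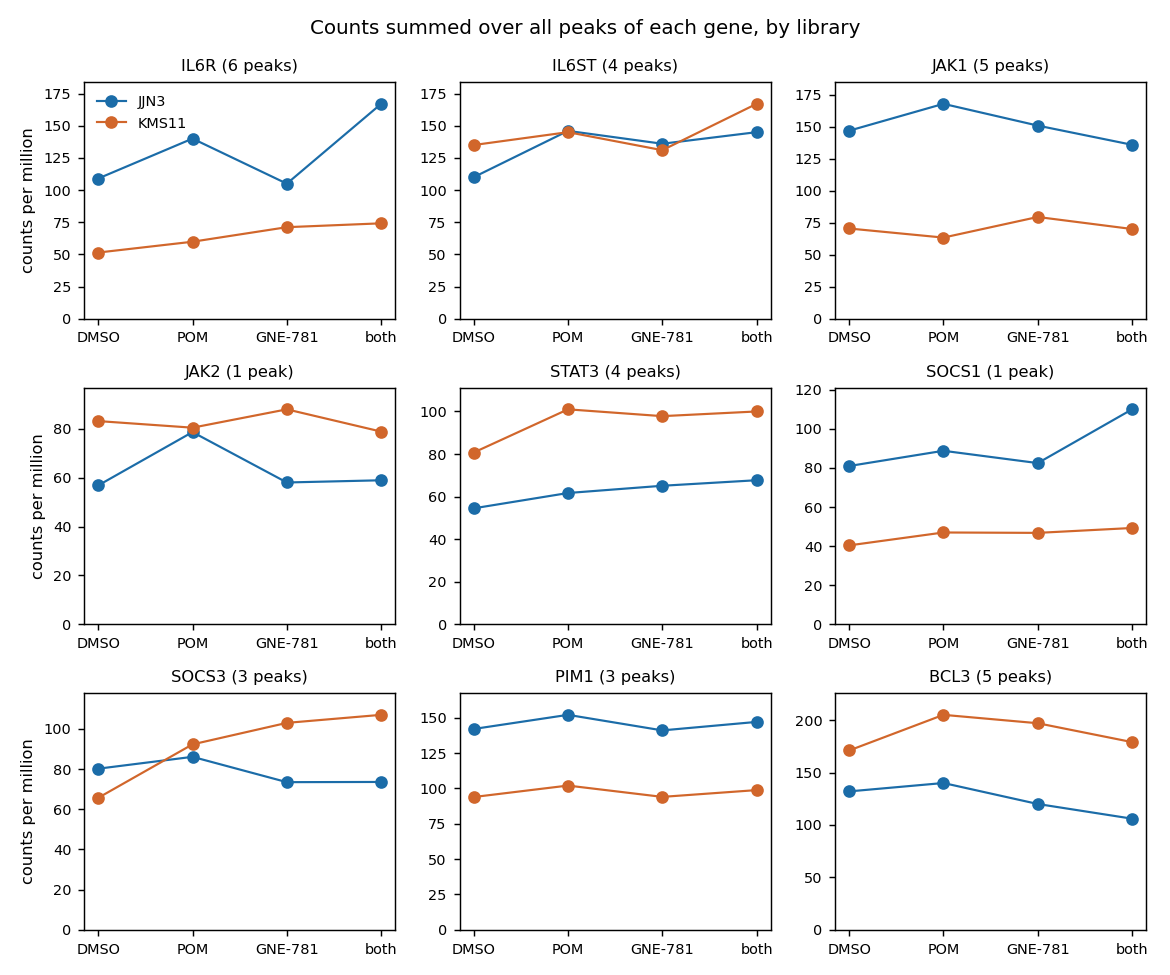
CPM summed over the member peaks of each of the 9 genes, by library, for JJN3 (blue) and KMS11 (orange). The IL6R sum leaves out the peak at its RefSeq start. Each point is 1 library and the vertical axes start at 0. IL6R ends highest with both drugs in each line (167 and 74.2), while for SOCS3 the lines cross, with JJN3 higher under DMSO (80.2 and 65.7) and KMS11 higher with both drugs (107 and 73.6).

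Over the 8 libraries, and after centring on each line, the genes whose summed accessibility followed that of IL6R most closely were PXT1 (Pearson r = 0.984), RP11-315D16.4 (0.982) and RP1-80N2.2 (0.982), of 19181 genes compared. These values describe 8 points that share their libraries, and the best of many genes is high by selection.

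The lines also differed from each other at several members. Between JJN3 and KMS11, 8 of the 32 peaks were called (25%, at an adjusted p under 0.05 and at least 2-fold), against 31.9% of all peaks. JJN3 was higher at 6 (18.8%, against 16.1% of all) and lower at 2 (6.25%, against 15.8%). None of the 9 promoter members was among them, while 21.7% of all promoter peaks were called. All but those of IL6ST and JAK1 had an edgeR adjusted p under 0.05 and missed only the 2-fold minimum. Among these, IL6R peak 5 differed by 0.70 ± 0.23 (log2), PIM1 peak 2 by 0.55 ± 0.13, JAK2 peak 1 by -0.39 ± 0.13 and SOCS3 peak 3 by -0.38 ± 0.15. Of the 32 members, 23 had an unadjusted p under 0.05 in edgeR, against 59% of all peaks.

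JAK1 held the widest line differences. All 4 in-gene JAK1 peaks were higher in JJN3: peak 3 by 3.13 ± 0.28 (log2, 8.75-fold), peak 2 by 3.02 ± 0.26, peak 4 by 2.41 ± 0.21 and peak 1 by 1.11 ± 0.35, with edgeR adjusted p of 8.71e-16 to 0.00597. Peak 1 was not called in DESeq2 or without either combination library. JAK1 peak 2 (chr1:64882773-64883381) ranged from 16.0 to 30 CPM in JJN3 and from 2.33 to 3 in KMS11. JAK1 peak 4 (chr1:64898027-64898746) ranged from 22.5 to 39.3 and from 4.93 to 8.19. The promoter of JAK1 differed by 0.17 ± 0.14 (adjusted p = 0.282), and the 33 other peaks within 1 Mb had a median difference of 0.31. Of those 33 neighbours, 9 were called between the lines (27.3%), and all 9 were higher in JJN3. A further peak inside the gene, assigned to LINC01359 (chr1:65002426-65003113) and so not a member, had 38.8 to 56.0 CPM in JJN3 and 4.63 to 7.25 in KMS11.

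IL6R peaks 3 and 4 were higher in JJN3 by 1.52 ± 0.25 and 1.31 ± 0.14, and the summed IL6R count by 1.03 ± 0.11. With JAK1 (1.09 ± 0.11) it was 1 of 2 genes of the 9 whose sums were called between the lines, against 23.1% of all genes. The peaks at the RefSeq start of IL6R and at the upstream start of JAK1 are outside these sums. They differed by 0.29 ± 0.13 and 0.3 ± 0.14 (log2). The other peaks within 1 Mb of IL6R had a median difference of 0.11. STAT3 peak 3 (chr17:42332954-42333305), from 1 to 8 counts in JJN3 and 18 to 43 in KMS11, was lower in JJN3 by 1.73 ± 0.40 (log2). BCL3 peak 1 was lower in JJN3 by 1.34 ± 0.25, with 3.85 to 7.76 CPM there and 12.7 to 19.7 in KMS11. The SOCS1 promoter differed by 0.97 ± 0.13 (adjusted p = 2.51e-09), just under 2-fold, and the 97 neighbouring peaks within 1 Mb by a median of 0.91. For STAT3 and BCL3 the promoter differences were -0.55 ± 0.13 and -0.67 ± 0.13, beside neighbour medians of -0.54 and -0.67. IL6ST peaks were not called between the lines.

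**Figure D4:**
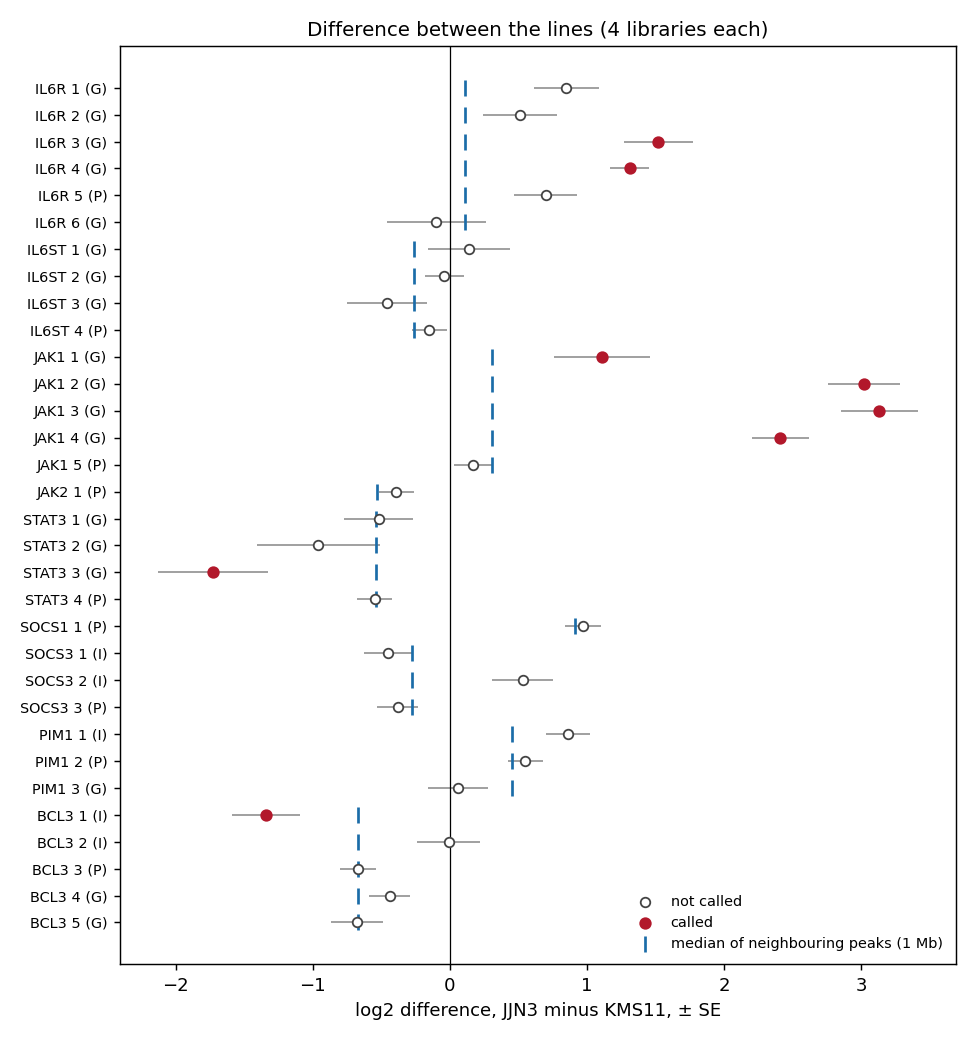
Log2 difference between JJN3 and KMS11 at each of the 32 peaks, over 4 libraries per line, with bars of ± 1 SE. Filled points are called, and blue ticks give the median difference of other peaks within 1 Mb of the gene. JAK1 peaks 2, 3 and 4 lie above 2, far from their neighbour median of 0.31, while the SOCS1 peak lies beside its own at 0.91.

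Drug responses that differ between the lines were tested with a line by drug term. Each drug's change was pooled there over libraries with and without the other drug. For pomalidomide 0 of 32 members passed in edgeR (0.0675% of all peaks did), with 2 at an unadjusted p under 0.05. For GNE-781 0 passed (0.00964% of all peaks did), with 5 unadjusted. DESeq2 called 0 in each, with 1 unadjusted. Without KMS11 DMSO, or without KMS11 pomalidomide, IL6R peak 1 was called for pomalidomide.

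The wider pathway was read from a list of 62 further symbols (1 gene under both of its names, SH2B3 and LNK) for ligands, receptors, kinases, STAT factors, inhibitors, adaptors and targets. Of these, 50 had a peak, 146 peaks in all, and no peak was nearest to IL6 itself. With both drugs 3 of the 146 rose and 2 fell (3.42%, against 4.79% of all peaks), and the median change was -0.05 (log2). The higher ones were in GRB2, an adaptor to the RAS pathway (1.55 ± 0.39, adjusted p = 0.0099), near IL10RA, a receptor chain for interleukin-10 (1.15 ± 0.31, 0.0194), and at the promoter of PTPN2, a phosphatase of JAK and STAT proteins (1.05 ± 0.30, 0.0254). Lower were a second peak in PTPN2 (-1.23 ± 0.32, adjusted p = 0.0125) and one in BCL2L1, which encodes the survival protein BCL-XL (-1.22 ± 0.30, 0.00764).

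Pomalidomide alone also raised a peak of this wider list, in which 1.37% of the 146 peaks were called. That is close to the 1.25% of all peaks. The PTPN2 promoter peak (chr18:12862225-12862885) had 5.26, 16.0, 8.98 and 15.0 CPM in JJN3 under DMSO, pomalidomide, GNE-781 and both, and 13.7, 31.1, 12.0 and 26.0 in KMS11. In each line both libraries with pomalidomide were above both without it, and the change under pomalidomide was 1.25 ± 0.29 (adjusted p = 0.0135). GNE-781 alone changed none of the 146. Between the lines 16 were higher and 20 lower in JJN3 (24.7%, against 31.9% of all peaks).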

How the data were processed

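ATAC-seq read counts from 8 libraries were analysed, 4 per line, with groups taken from the cell line and treatment labels. The authors deposited raw counts per peak over 1 union peak set. Per the submitters' processing notes MACS2 2.1.1.20160309, SAMtools 1.10, R 4.1.2, Trim Galore 0.6.4 with cutadapt 2.5, and Bowtie2 2.3.5.1 were used, in no stated order, with GRCh38. How duplicates and the transposase offset were handled is not given in the sources used here, so PCR copies may make counting error look too small. Whether libraries of a line came from separate cultures is not stated, and the labels name no batch.

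In R 4.3.3, a filter on mean CPM (2 or more) kept 62234 peaks. Counts were scaled by trimmed means of M-values and tested with edgeR 4.0.16, quasi-likelihood, two-sided, with line and treatment as terms and 3 residual degrees of freedom. P-values were adjusted by Benjamini-Hochberg over all peaks. The line by drug model left 2 residual degrees of freedom. Each peak's spread was drawn towards that of all peaks. This carried 62.8 prior degrees of freedom in the main model and 153 in the line by drug model. SE, model intervals and p-values from edgeR therefore rest mostly on that shared spread. DESeq2 1.42.0, other scalings, filters and designs, and leaving out each library were the alternatives. The test of the combination was also run on simulated counts, with the same spread for every peak and the same drug effect in both lines. That run cannot check whether the lines respond alike or whether the shared spread suits each peak.

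The members and lists were chosen with earlier results of these data known. Peaks named were every member called in a drug comparison and, per gene, the strongest promoter peak, the lowest p for both drugs and the largest line difference; other peaks named with values (IL6R peak 1, JAK1 peaks 1, 2 and 4) were chosen after their values were seen. Exons and introns were not assigned. One result of the wider pathway list is not reported here.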

Additional observations from a re-analysis of the deposited data

How the results depend on the processing

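Pairing rests on the line: both lines carry each treatment, and the line term is a replicate block in this sense. With no replicate block (no line term) the combination called 0 members in place of 7, with 3 at an unadjusted p under 0.05, and 0% of all peaks. The combination count was 1 with DESeq2, 0 without JJN3 DMSO, and ranged from 0 to 7 over the 8 libraries left out in turn. It was 6 or 7 under the other scaling, the other filters, additive drug terms and the compared libraries alone. Under pomalidomide the count of 0 became 5 with additive drug terms, and stayed 0 under every other alternative run. The GNE-781 count, both comparisons of the combination with a single agent, the departure from additivity and the line difference of the GNE-781 effect stayed at 0 throughout. The line difference of the pomalidomide effect ranged from 0 to 1 over the libraries left out. Between the lines 7 to 10 members were called. The summed IL6ST count under pomalidomide was 0.23 (log2) and reversed to -0.26 (SE 0.19, adjusted p = 0.655) over its distal peaks alone. Of the single peaks and gene sums, 839 alternative values kept the call or its absence, 44 lost the call and 12 gained it. Values that were not called could change sign and still count among the 839. With both drugs STAT3 peak 3 went from -0.56 (log2) to 0.99 without KMS11 DMSO. The cause of these changes was not tested. The median count per peak was 12 in JJN3 DMSO, and STAT3 peak 2 had 2 counts there, with a counting interval of 0.949 to 38.3 for its ratio with both drugs.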
